A study of Homo sapiens with 3 samples.

Results

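Ephrins, semaphorins and their receptors are described here by the levels of their mRNA in HCT116 cells, as the labels name them, a line from a human colorectal carcinoma. The members were all protein-coding genes of the deposited table whose symbols belong to the ephrin (EFNA, EFNB), Eph receptor (EPHA, EPHB), semaphorin (SEMA), plexin (PLXN) and neuropilin (NRP1, NRP2) families, 53 of 58735 genes. They comprised 5 ephrin-A and 3 ephrin-B ligands, 9 EPHA and 5 EPHB receptors, 7 secreted and 13 membrane-bound semaphorins, 9 plexins and 2 neuropilins. RNA sequencing had been run on 3 libraries, 1 from cells with an empty vector, 1 from cells overexpressing wild-type ZEB1 and 1 from cells overexpressing ZEB1 K80R, a mutant with a lysine-to-arginine change. All 3 groups carry the treatment label control, and the sources used here do not state whether each line was a clone or a pool. ZEB1, a DNA-binding protein with zinc fingers, keeps epithelial genes silent, and the title of the series asks how its mutant bears on NF-κB, on epithelial-mesenchymal transition and on inflammatory genes. With 1 library per group there was no replicate spread and no test, so every comparison is between single libraries.

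Ephrins and semaphorins are guidance cues that tell cells and axons where to move and where to stop. Ephrins are bound to the membrane, the A class by a lipid anchor and the B class by a transmembrane segment, and they signal at cell contacts through Eph receptor tyrosine kinases, with signals also running back into the ephrin-bearing cell. Semaphorins are secreted or membrane-bound and act through plexins, which switch off small GTPases of the R-Ras and Rap families, and the secreted class 3 semaphorins mostly need a neuropilin as coreceptor. In epithelia and carcinomas these families govern cell sorting, contact repulsion, migration and vessel growth.

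Levels are in FPKM, fragments per unit of gene length and of sequencing depth, so they can be compared between genes. A ratio of FPKM is followed in brackets by its exact 95% interval from the reads behind the values, which covers counting error only. A member counts as higher or lower where FPKM + 1 differed at least 1.5-fold, a measure that damps low genes, and "within 1.5-fold" below refers to that measure. This was asked of the 36 members with a mean FPKM of at least 1, beside 10372 protein-coding genes that passed the same filter. A level in bulk RNA does not tell a change in every cell from a change in the share of cells that hold the transcript.

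The libraries held 14764535 reads on genes for empty vector, 14322537 for wild-type ZEB1 and 13479517 for ZEB1 K80R. The depth behind the deposited FPKM was 1.076, 0.963 and 0.988 times these sums, so ratios of FPKM differ somewhat from ratios of reads per read sum. ZEB1 itself was measured at 5.66 FPKM with empty vector, 9.83 with the wild-type and 10.3 with the K80R construct. These were 1.74 (1.58 to 1.90) and 1.82 (1.66 to 1.996) times empty vector, and as deposited both passed the 1.5-fold limit by FPKM + 1. The name overexpression library, used below, follows the sample labels. The label of the cell line could not be borne out by colon epithelial markers: of 18, 11 had 0 reads in all libraries, among them EPCAM, CDH1, CDX1, CDX2 and VIL1, and their summed level was 0.367 to 0.541 FPKM. Markers of leukocytes (7 genes, summed level 0.469 to 1.05 FPKM) and endothelium (7 genes, 0.811 to 1.28) had no gene at a mean FPKM of 1. Of 9 neuronal and glial markers, 1 reached it (summed level 1.55 to 1.83), and of 9 fibroblast markers, 3 did (6.70 to 9.37). The empty vector library had reads on 18928 genes against 23457 and 24325 in the others, and 350 genes with exactly 1 read against 2705 and 2902. Mitochondrial genes took 1.29% of the reads in the empty vector library against 7.77% and 9.75% in the others, and the summed FPKM was 1.37 times and 1.36 times that of empty vector. Scaled to a common sum, any ratio to empty vector under 1.37 (wild type) or 1.36 (K80R) therefore falls below 1, and the median protein-coding gene moves from 0.02 to −0.36 and from 0.01 to −0.36 on the log2 scale. At a common sum without mitochondrially encoded genes that median lies at −0.04 and 0.07. The part of these differences between libraries in the values below was not tested. At a common sum of FPKM the ZEB1 ratios would be divided by 1.37 (wild type) and 1.36 (K80R). Both would stay above 1 but fall under the 1.5-fold limit, so the size of the ZEB1 difference depends on the scaling.

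Most of the families were present at low to moderate levels, and a few members stood far above the rest. SEMA7A, a lipid-anchored semaphorin, and EPHA2, an Eph receptor of epithelial and tumour cells, had the highest levels of all 53. SEMA7A (ENSG00000138623; GRCh38, chromosome 15, 74409289 to 74433958, minus strand) stood at 141, 216 and 191 FPKM in the empty vector, wild-type and K80R libraries. EPHA2 (ENSG00000142627; chromosome 1, 16124337 to 16156087, minus strand) stood at 148, 192 and 165 in the same order. Among protein-coding genes SEMA7A ranked 185, 126 and 115 and EPHA2 ranked 178, 146 and 147. PLXNA1, PLXNB2 and NRP1 followed, each at 72.1 FPKM or more in every library. At the other end, 17 members had a mean FPKM under 1, and 4 of them, EPHA5, EPHA7, EPHA10 and SEMA4A, had 0 reads throughout. The 17 together had 322, 223 and 288 reads, and none exceeded 0.812 FPKM in any library. The filter fell between EPHB3, at a mean of 0.695, and EFNA3, at 1.17.

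**Figure D1:**
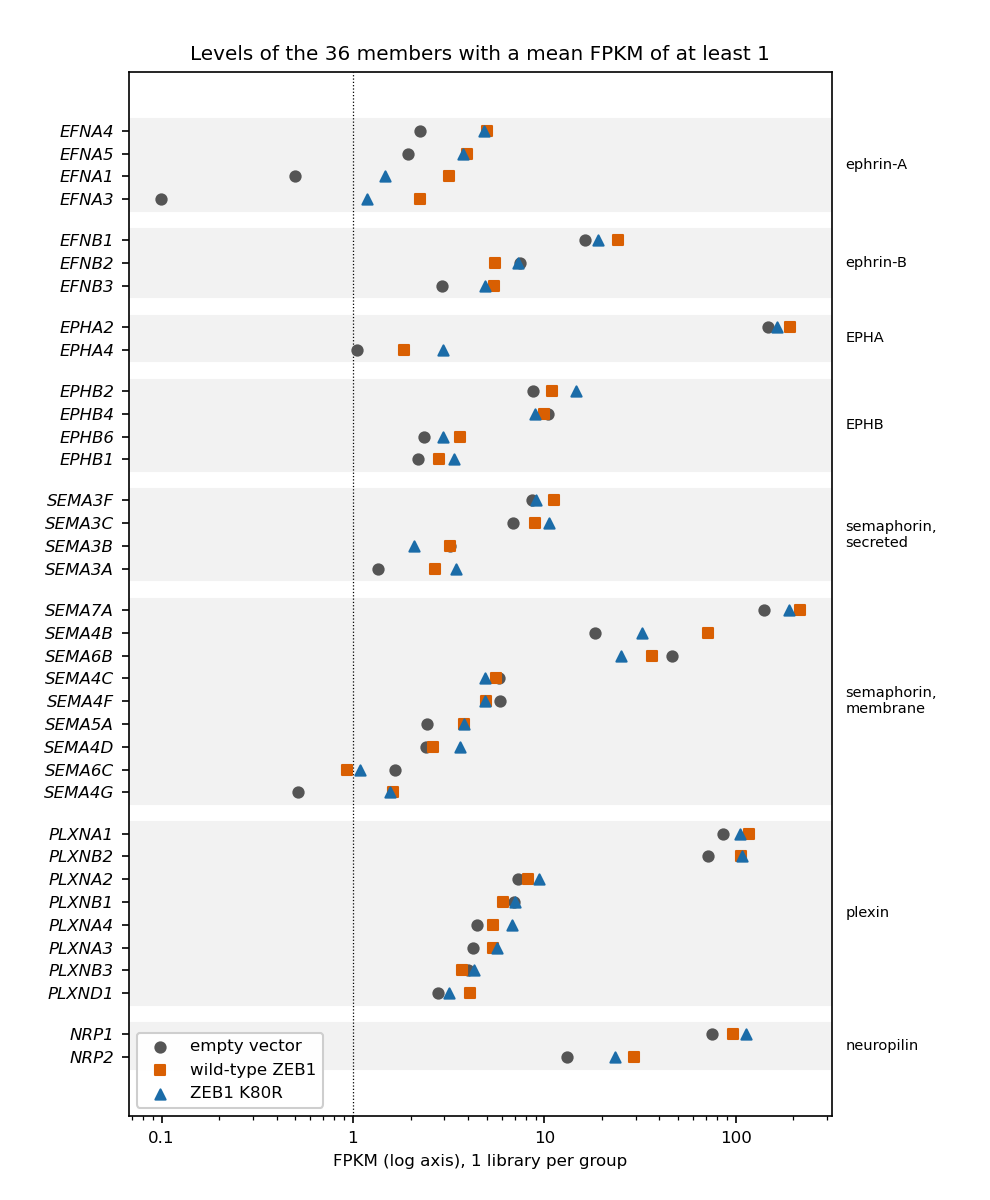
FPKM of the 36 members with a mean of at least 1, on a log axis, by class and ordered by mean level within it, with 1 point per library (empty vector, wild-type ZEB1, ZEB1 K80R). The dotted line is at 1 FPKM; the empty vector points of EFNA3 and EFNA1 lie at 0.0989 and 0.496, below both other libraries, as do those of SEMA4G.

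Promoters are shown for the ephrin-A genes that lie side by side on chromosome 1, for the ephrin-B gene EFNB2, which was lowest with wild-type ZEB1, and for the receptor gene EPHB2, which was highest with K80R. These are the 250 bases before each RefSeq start site (GRCh38.p14), 5′ to 3′ on the gene's strand, with each E-box CANNTG, the loose form of the motif that ZEB1 binds, in capitals.
EFNA4, chr1:155063490-155063739, plus strand: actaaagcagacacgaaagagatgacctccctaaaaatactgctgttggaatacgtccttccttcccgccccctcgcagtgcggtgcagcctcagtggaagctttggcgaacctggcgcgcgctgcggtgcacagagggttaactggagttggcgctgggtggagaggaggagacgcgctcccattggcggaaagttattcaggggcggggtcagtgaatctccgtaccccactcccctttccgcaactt
EFNA3, chr1:155078587-155078836, plus strand: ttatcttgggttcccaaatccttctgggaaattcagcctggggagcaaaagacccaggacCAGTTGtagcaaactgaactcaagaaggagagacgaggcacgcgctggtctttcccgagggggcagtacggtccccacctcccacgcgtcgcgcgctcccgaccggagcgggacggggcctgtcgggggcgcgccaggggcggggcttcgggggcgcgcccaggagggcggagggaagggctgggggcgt
EFNA1, chr1:155127626-155127875, plus strand: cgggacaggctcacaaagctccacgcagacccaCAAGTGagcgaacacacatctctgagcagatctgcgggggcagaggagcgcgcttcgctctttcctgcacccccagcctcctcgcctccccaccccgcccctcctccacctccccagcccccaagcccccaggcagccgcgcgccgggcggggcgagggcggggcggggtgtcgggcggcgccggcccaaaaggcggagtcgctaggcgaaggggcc
EFNB2, chr13:106535663-106535912, minus strand: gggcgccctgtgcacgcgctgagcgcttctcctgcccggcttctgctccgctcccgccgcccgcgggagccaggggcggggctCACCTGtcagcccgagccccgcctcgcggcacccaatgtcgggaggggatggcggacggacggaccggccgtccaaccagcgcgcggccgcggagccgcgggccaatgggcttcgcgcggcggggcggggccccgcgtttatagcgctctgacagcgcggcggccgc
EPHB2, chr1:22710588-22710837, plus strand: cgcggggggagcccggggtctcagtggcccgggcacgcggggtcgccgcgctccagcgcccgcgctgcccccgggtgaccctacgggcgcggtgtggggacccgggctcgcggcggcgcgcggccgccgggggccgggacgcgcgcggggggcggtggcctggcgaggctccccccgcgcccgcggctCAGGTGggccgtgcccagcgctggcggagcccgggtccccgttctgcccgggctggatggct

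EFNA4 holds no E-box in this stretch, EFNA3 and EFNA1 hold 1 of the loose form each, and EFNB2 and EPHB2 hold 1 each of the strict form CACCTG, which is also an instance of CANNTG, on either strand. The stretches are rich in G and C, from 58.4% in EFNA4 to 84.8% in EPHB2. The start site used for EFNA1 lies 416 bases inside the gene as the deposited coordinates give it, and those of the other 4 lie within 35 bases of the gene's edge. In windows of 300 bases, 250 before to 50 after the start, CACCTG on either strand was present in 10 of the 47 members with a promoter in the RefSeq table, 21.3%, and in 20.6% of all 35116 promoters. Of the 32 members with a mean FPKM of at least 1 and a promoter, 6 held it. The NF-κB consensus, searched on both strands, was present in 3 of 47 promoters, 6.38%, those of EFNA2, EPHA3 and EPHB1, and in 5.91% of all promoters. Both shares lie near those of all promoters, and a match of letters is a description of the window only.

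In the library with wild-type ZEB1, ephrin-A ligands, SEMA4B and NRP2 stood higher than in the empty vector library, while no plexin or Eph receptor passed 1.5-fold by FPKM + 1. Of the 36 members, 10 (27.8%) were higher and none was lower, where 12.0% of all protein-coding genes were higher and 7.63% lower. The median member differed by 0.37 on the scale of log2(FPKM + 1), against 0.02 for all genes. With all libraries scaled to 1 sum, 4 members were higher and 4 lower and their median was −0.071, against −0.36 for all genes, of which 3.87% were then higher and 30.9% lower. The distance between members and all genes was 0.36 as deposited and 0.29 at a common sum. Among the 32 members at 1 FPKM or more in both libraries, which could not pass the filter through 1 library alone, 7 were higher. The share of all genes under that restriction was not counted, so this count has no background beside it.

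The ZEB1 K80R library, set against the same empty vector library, had 12 members higher and 1 lower, where 9.68% of all genes were higher and 10.3% lower. Its median member differed by 0.44 on the log2(FPKM + 1) scale, against 0.01 for all genes. At a common sum 3 were higher and 6 lower, where 2.91% of all genes were higher and 31.4% lower, with a median of 0.056 against −0.36, so that the distance from all genes was 0.43 before and 0.42 after. Of the 33 members at 1 FPKM or more in both libraries, 9 were higher and 1 lower, again with no share of all genes counted under that restriction. Because both comparisons share the empty vector library, a level that is off in that library moves both. It was the lowest of the 3 libraries for 27 of the 36 members and for 40.7% of all protein-coding genes tested.

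**Figure D2:**
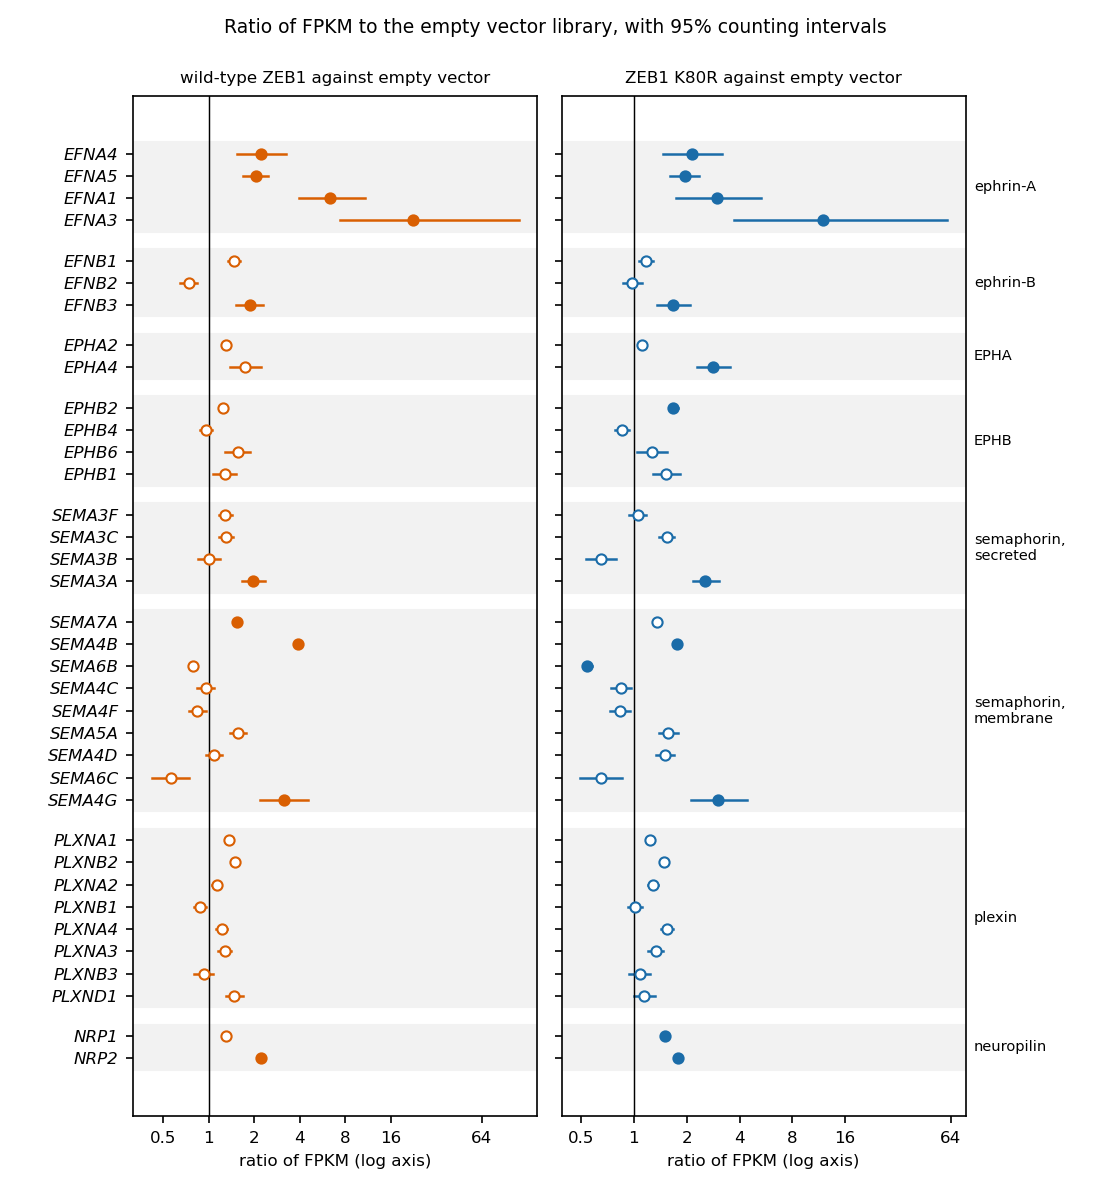
Ratio of FPKM to the empty vector library for the same 36 members, on a log axis, in the wild-type ZEB1 (left) and ZEB1 K80R (right) libraries; bars are exact 95% counting intervals, and filled points differ at least 1.5-fold by FPKM + 1. EFNA3 and EFNA1 have the highest ratios on the left; at a common sum every ratio would be divided by 1.37 (left) or 1.36 (right), which puts unfilled points to the left of 1.37 or 1.36 below 1.

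Ephrin-A ligands bind EPHA receptors and are tethered by a lipid anchor. Of the 5, 4 passed the filter and all 4 were higher than empty vector in both overexpression libraries, though EFNA1 and EFNA3 lay under 1 FPKM in the empty vector library and passed through the other libraries alone. At a common sum the calls of EFNA4 and EFNA5 were lost in both libraries and that of EFNA1 in K80R, which left EFNA3 in both and EFNA1 in wild type. EFNA1 (ENSG00000169242; chromosome 1, 155127460 to 155134857, plus strand), the first ephrin described and a ligand of EPHA2, stood at 0.496 FPKM with empty vector, 3.17 with wild-type ZEB1 and 1.48 with K80R. These values came from 20, 111 and 50 reads. The wild-type library was the highest, at 6.39 (3.95 to 10.9) times empty vector, and K80R was at 2.98 (1.74 to 5.29) times. K80R reached 0.466 (0.327 to 0.657) of the wild-type level, which made EFNA1 1 of the 2 members that differed 1.5-fold between the overexpression libraries.

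EFNA3 (ENSG00000143590; chromosome 1, 155078872 to 155087538, plus strand) had 3, 59 and 30 reads, or 0.0989, 2.24 and 1.18 FPKM. The empty vector library also held few genes with 1 read, and the part of that in this low value was not tested. With 3 reads there, its ratios have wide intervals, 22.6 (7.38 to 113) for wild type and 11.9 (3.71 to 61.1) for K80R. As with EFNA1, K80R lay between the other libraries, at 0.527 (0.328 to 0.831) of wild type, a ratio of 0.673 by FPKM + 1 and just inside the 1.5-fold limit.

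EFNA4 (ENSG00000243364; chromosome 1, 155063731 to 155069553, plus strand) stood at 2.24, 4.99 and 4.81 FPKM, with ratios of 2.23 (1.54 to 3.27) and 2.15 (1.47 to 3.16) to empty vector. EFNA5 (ENSG00000184349; chromosome 5, 107376889 to 107670895, minus strand), which is best known from the mapping of retinal axons, stood at 1.93, 3.95 and 3.75, with ratios of 2.05 (1.70 to 2.48) and 1.94 (1.60 to 2.36). For these 2 genes the overexpression libraries lay together, with ratios of K80R to wild type of 0.964 (0.704 to 1.32) and 0.949 (0.805 to 1.12). EFNA2, the fifth, had 4, 0 and 1 reads and was below the filter.

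EFNA4, EFNA3 and EFNA1 lie next to each other in that order on the plus strand, with 9.32 kb between the first pair and 39.9 kb between the second. The protein-coding gene on one side, the metalloprotease gene ADAM15, stood at 30.9, 27.4 and 25.6 FPKM and did not share their order of libraries. The gene on the other side, the sugar transporter SLC50A1, stood at 11.1, 28.7 and 22.1, with the same order as EFNA1 and EFNA3. Both were taken by their position, after values of the ephrin genes had been seen. A read-through transcript of the region, AL691442.1, had 0 reads in all libraries and overlaps 44.7% of the exon bases of EFNA3 and 15.0% of those of EFNA4, and how reads on shared bases were counted is not stated in the sources used here.

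**Figure D3:**
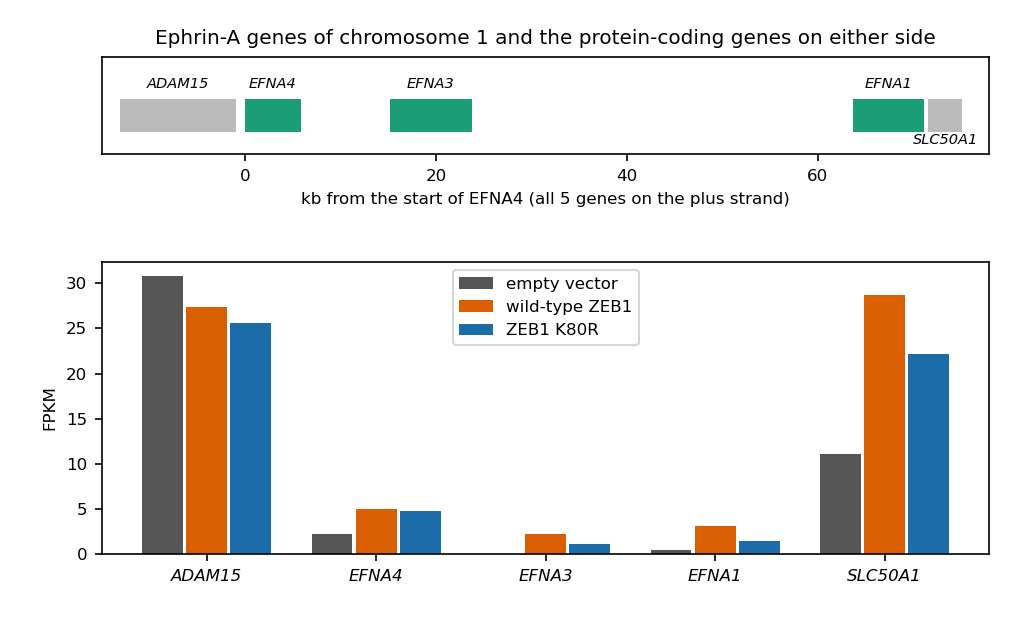
Top: positions of the 3 neighbouring ephrin-A genes (green) and the protein-coding genes on either side (grey), in kb from the start of EFNA4, all on the plus strand; the read-through transcript with 0 reads is not drawn. Bottom: FPKM of each gene in the 3 libraries, 1 bar per library; EFNA3 and EFNA1 go from 0.0989 and 0.496 FPKM in empty vector to 2.24 and 3.17 in wild-type ZEB1, and ADAM15 from 30.9 to 27.4.

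Ephrin-B ligands, which carry a cytoplasmic tail and signal in both directions, did not share 1 pattern. EFNB1 was the most abundant ephrin, at 16.4, 24.2 and 19.2 FPKM, and lay within 1.5-fold by FPKM + 1, at ratios of 1.48 (1.35 to 1.62) for wild type and 1.17 (1.06 to 1.29) for K80R. EFNB2, the partner of EPHB4 in arteries and veins, stood at 7.45, 5.52 and 7.30 and was lowest in the wild-type library, at 0.741 (0.650 to 0.844) of empty vector. K80R was at 0.98 (0.867 to 1.11) of empty vector and at 1.32 (1.15 to 1.52) of wild type. An antisense gene overlaps 26.2% of the exon bases of EFNB2, and whether counting used the strand is not stated in the sources used here. EFNB3 stood at 2.93, 5.47 and 4.92 and was higher in both overexpression libraries, at 1.87 (1.52 to 2.30) and 1.68 (1.35 to 2.08) times empty vector, calls that were lost at a common sum.

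EPHA receptors were represented almost entirely by EPHA2, which held 98.1% to 99.1% of the summed EPHA level in each library. EPHA2 differed little, at 1.3 (1.26 to 1.33) times empty vector with wild-type ZEB1 and 1.11 (1.08 to 1.14) times with K80R, both below 1 at a common sum. Set against the summed level of its ephrin-A ligands, EPHA2 was 29.4 times as high with empty vector, 13.4 times with wild type and 14.6 times with K80R. EPHA4 (ENSG00000116106; chromosome 2, 221418027 to 221574202, minus strand), which binds ephrins of both classes, had the opposite order from EFNA1 and EFNA3 between the overexpression libraries. It stood at 1.05, 1.84 and 2.97 FPKM, highest with K80R, at 2.83 (2.29 to 3.51) times empty vector and 1.61 (1.34 to 1.94) times wild type. By FPKM + 1 the former passed the 1.5-fold limit and the latter, at 1.40, did not. The other 7 EPHA genes had at most 16 reads in any library.

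EPHB receptors had 4 of 5 members past the filter. EPHB2 (ENSG00000133216; chromosome 1, 22710839 to 22921500, plus strand), a Wnt target that positions cells along the intestinal crypt, stood at 8.77, 11.0 and 14.7 FPKM. It was highest with K80R, at 1.68 (1.58 to 1.78) times empty vector and 1.34 (1.26 to 1.43) times wild type. By FPKM + 1 as deposited, it was the only EPHB gene past the 1.5-fold limit in any comparison. At a common sum EPHB4 was lower in K80R than in empty vector, and the call of EPHB2 was lost. EPHB1, at 2.19, 2.80 and 3.36, had the same order of libraries. EPHB4 stood at 10.4, 9.95 and 8.91 and EPHB6, whose kinase domain is inactive, at 2.34, 3.65 and 2.96, both within 1.5-fold. EPHB3 was below the filter, with 41, 44 and 49 reads. The summed EPHB level was 0.908, 0.797 and 0.98 times the summed ephrin-B level, so the mRNA sums of receptors and ligands of this class were similar. Protein was not measured.

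**Figure D4:**
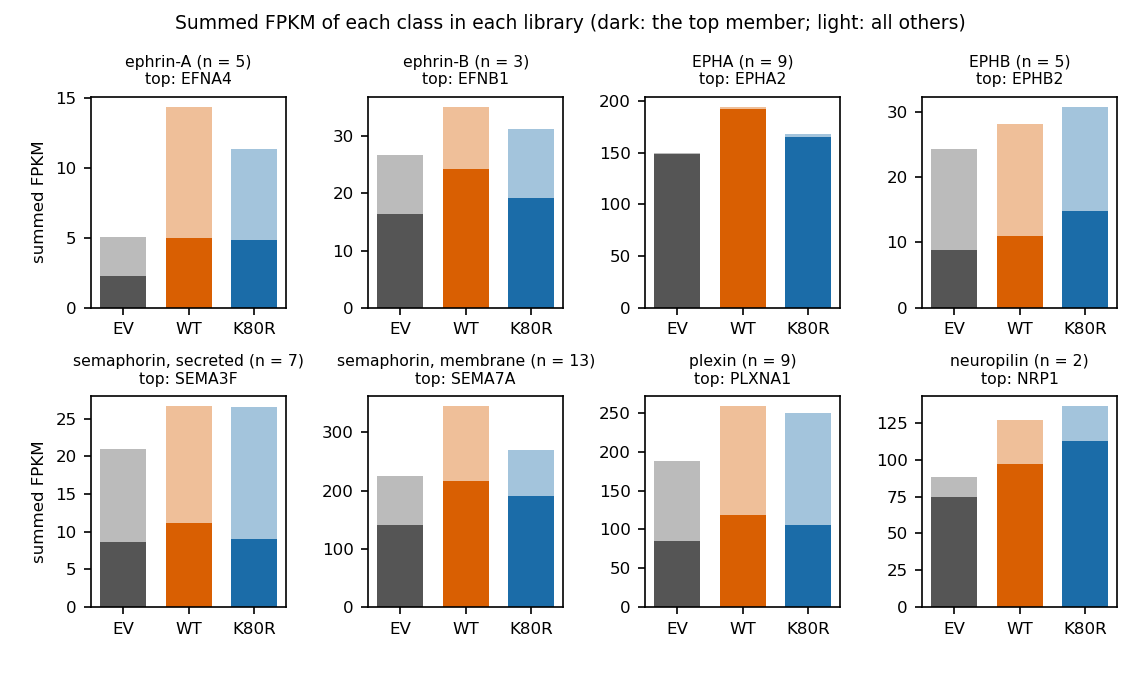
Summed FPKM of all members of each class in the empty vector (EV), wild-type ZEB1 (WT) and ZEB1 K80R (K80R) libraries, with the member named above each panel in the dark colour and all others in the light colour; each panel has its own axis from 0. The ephrin-A sum is 5.03, 14.4 and 11.3 FPKM; at a common sum of FPKM the ratios to empty vector stay above 1 for ephrin-A and neuropilins in both libraries and for membrane semaphorins and, at 1.001, plexins in wild type, and fall below 1 elsewhere.

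The secreted semaphorins of class 3 repel axons and endothelial cells through neuropilins. SEMA3A (ENSG00000075213; chromosome 7, 83955777 to 84492724, minus strand), the founding member and a ligand of NRP1, stood at 1.36, 2.68 and 3.47 FPKM in the empty vector, wild-type and K80R libraries. It was higher in both overexpression libraries, at 1.97 (1.65 to 2.36) and 2.56 (2.16 to 3.04) times empty vector, and K80R was at 1.3 (1.12 to 1.5) times wild type. At a common sum the K80R call was kept and the wild-type call lost. SEMA3C had the same order, at 6.86, 8.94 and 10.5, and lay within 1.5-fold. The candidate tumour suppressors SEMA3B and SEMA3F lie 78.5 kb apart on chromosome 3. SEMA3B stood at 3.20, 3.22 and 2.08 and was lowest with K80R, at 0.651 (0.534 to 0.792) times empty vector and 0.647 (0.528 to 0.792) times wild type, within 1.5-fold by FPKM + 1. SEMA3F stood at 8.66, 11.2 and 9.10. SEMA3D, with 87, 47 and 81 reads, SEMA3G, with 17, 12 and 36, and SEMA3E, with 1 read in all, were below the filter.

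Among the membrane-bound semaphorins, SEMA4B differed most between the overexpression libraries. SEMA4B (ENSG00000185033; chromosome 15, 90160604 to 90229679, plus strand), a transmembrane semaphorin, stood at 18.4 FPKM with empty vector, 72.0 with wild-type ZEB1 and 32.3 with K80R, from 2047, 6959 and 3014 reads. The wild-type library stood above both others, at 3.91 (3.73 to 4.11) times empty vector, and K80R was at 1.76 (1.66 to 1.86) times empty vector and 0.449 (0.430 to 0.468) times wild type. At a common sum the call of K80R against empty vector was lost and the others were kept. It was the only member to differ more than 2-fold by FPKM + 1 between K80R and wild type.

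SEMA6B (ENSG00000167680; chromosome 19, 4542593 to 4559808, minus strand), a ligand of class A plexins, had the reverse order from SEMA3A. It stood at 46.5, 36.6 and 25.3 FPKM, at 0.785 (0.744 to 0.829) times empty vector with wild type and 0.543 (0.510 to 0.577) times with K80R. As deposited it was the only member lower by 1.5-fold against empty vector in either comparison. At a common sum SEMA6B was lower in both libraries. So were EFNB2, SEMA6C and SEMA4F in wild type. SEMA3B, EPHB4, SEMA4C and SEMA4F were among those then lower in K80R. SEMA6B was 2.53 times as high as SEMA4B in the empty vector library and 0.508 and 0.782 times as high in the wild-type and K80R libraries, so the order of these 2 semaphorins was the reverse in both overexpression libraries. Its close relative SEMA6C was also highest with empty vector, at 1.67, 0.936 and 1.09.

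SEMA7A, which binds integrins as well as a plexin, was 1.54 (1.49 to 1.58) times empty vector with wild type and 1.36 (1.32 to 1.40) times with K80R. By FPKM + 1 the former, 1.53, was just past the 1.5-fold limit and was lost at a common sum and at a common sum without mitochondrial genes. Its plexin receptor, PLXNC1, was below the filter, at 0.331, 0.271 and 0.213 FPKM from 52, 37 and 28 reads. The β1 integrin gene ITGB1, which encodes the common subunit of its integrin receptors and was looked up after the values of SEMA7A were seen, stood at 185, 261 and 304. SEMA4G stood at 0.515, 1.61 and 1.56 and was higher in both overexpression libraries, through which alone it passed the filter, and both calls were lost at a common sum. Beside that, 27.4% of its exon bases are shared with genes on the opposite strand (MRPL43 and AL133215.1).

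Of the other membrane semaphorins, SEMA5A, at 2.42, 3.82 and 3.81 FPKM, lay within 1.5-fold, as did SEMA4C, at 5.83, 5.57 and 4.90, and SEMA4F, at 5.86, 4.94 and 4.91. SEMA4D, a ligand of PLXNB1 known from immune cells and bone, stood at 2.41, 2.63 and 3.62, highest with K80R at 1.37 (1.22 to 1.54) times wild type. SEMA6A and SEMA6D had 22 to 51 reads per library. SEMA5B had at most 1.

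Of the plexins, the receptors of semaphorins, none of the 8 that passed the filter differed 1.5-fold by FPKM + 1 in any comparison as deposited. Among all genes, 12.0% were higher and 7.63% lower with wild type, and 9.68% and 10.3% with K80R. For K80R against wild type the shares were 1.33% and 3.87%. With 8 genes, a count of 0 cannot be told from these shares. At a common sum without mitochondrially encoded genes, PLXNB2 and PLXNA4 were higher in K80R than in empty vector. PLXNA1 (ENSG00000114554; chromosome 3, 126988594 to 127037392, plus strand), which pairs with neuropilins, stood at 85.7, 118 and 106 FPKM. PLXNB2 (ENSG00000196576; chromosome 22, 50274979 to 50307627, minus strand), a receptor of class 4 semaphorins, stood at 72.1, 107 and 108, just under the limit at 1.48 and 1.49 times empty vector by FPKM + 1. These 2 genes held 84.0% to 87.1% of the summed plexin level. The other class A plexins, PLXNA2 at 7.29, 8.24 and 9.40, PLXNA3 at 4.23, 5.42 and 5.64 and PLXNA4 at 4.43, 5.41 and 6.81, were each lowest with empty vector and highest with K80R. PLXNB1 stood at 6.93, 6.08 and 7.03 and PLXNB3 at 4.0, 3.70 and 4.32, both lowest with wild type. PLXND1, a receptor for SEMA3E in vessels, stood at 2.77, 4.11 and 3.18.

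The neuropilins are short-tailed coreceptors for class 3 semaphorins and for vascular endothelial growth factors. NRP2 (ENSG00000118257; chromosome 2, 205681990 to 205798133, plus strand), the partner of SEMA3F, stood at 13.2, 29.5 and 23.5 FPKM. It was higher in both overexpression libraries, at 2.23 (2.14 to 2.34) and 1.77 (1.69 to 1.86) times empty vector, and K80R was at 0.795 (0.764 to 0.827) times wild type. At a common sum the wild-type call was kept and the K80R call lost. NRP1 (ENSG00000099250; chromosome 10, 33177492 to 33336262, minus strand), the partner of SEMA3A, stood at 74.9, 97.5 and 113, highest with K80R, at 1.3 (1.27 to 1.33) and 1.51 (1.47 to 1.54) times empty vector. By FPKM + 1 the K80R ratio was at the limit, 1.5, and the call was lost at a common sum. NRP1 was 5.66 times as high as NRP2 with empty vector, 3.30 times with wild type and 4.81 times with K80R.

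Between the overexpression libraries most members lay close together. Of the 36, none was higher with K80R and 2, SEMA4B and EFNA1, were lower by 1.5-fold, where 1.33% of all genes were higher and 3.87% lower. The share of members that was lower, 5.56%, lay near that of all genes. The median difference of log2(FPKM + 1) was −0.04 against −0.03 for all genes. Over all 36, the counting interval of the ratio lay above 1 for 12 members and below 1 for 14, SEMA4B and EFNA1 included, and such differences cannot be set against a spread between cultures. All genes were not counted by this interval, so these counts have no background beside them and say nothing particular about the members. EPHA4, SEMA4D, EPHB2, EFNB2, SEMA3A and PLXNA4 had ratios of 1.26 to 1.61 in favour of K80R. EFNA1, SEMA4B, EFNA3, SEMA3B and SEMA6B had the lowest, from 0.449 to 0.691.

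**Figure D5:**
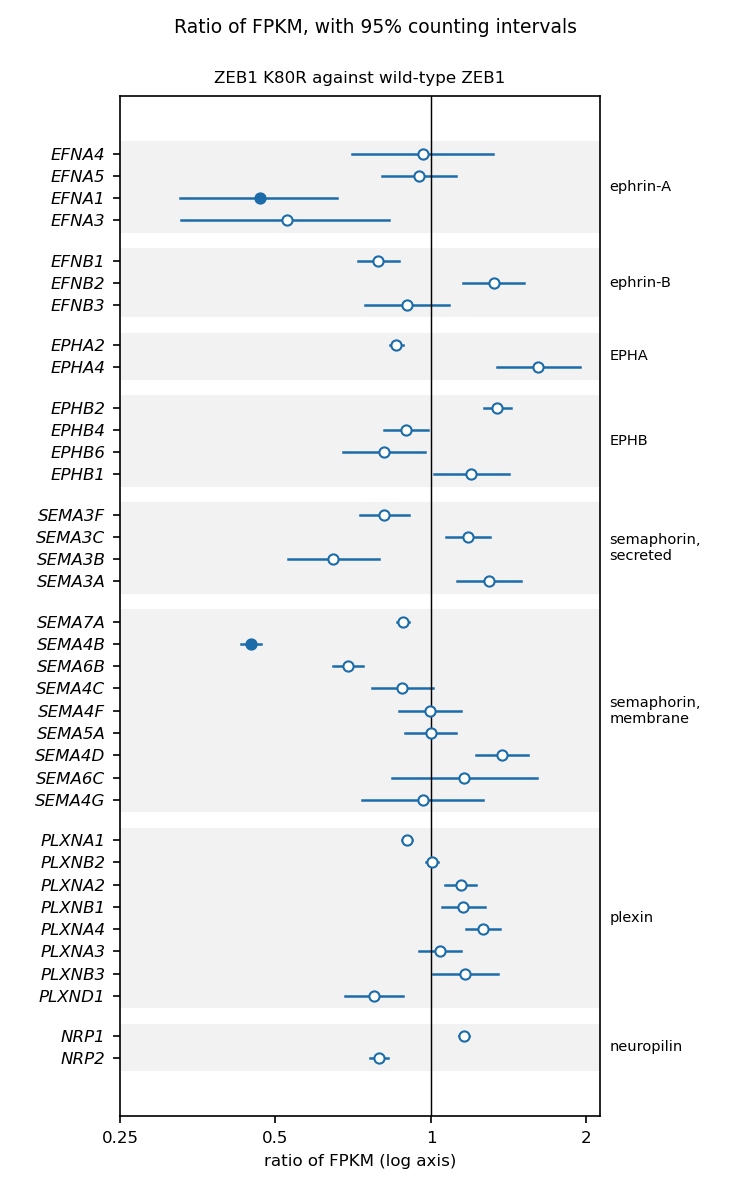
Ratio of FPKM of the ZEB1 K80R library to the wild-type ZEB1 library for the 36 members, on a log axis; bars are exact 95% counting intervals, and filled points differ at least 1.5-fold by FPKM + 1. The filled points are SEMA4B, at 0.449, and EFNA1, at 0.466; plexins lie between 0.775 and 1.26.

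Genes that act downstream of these receptors were counted in the same way. The counts and levels of this list and of the lists below are as deposited, and their calls were not repeated at a common sum. There, ratios to empty vector would be divided by 1.37 (wild type) or 1.36 (K80R). Of 32 effectors and proteases of Eph signalling, 26 passed the filter; 3 were higher and 2 lower with wild-type ZEB1 than with empty vector, with a median of 0.13, and 4 and 2 with K80R, with a median of 0.03. Of all genes, 12.0% were higher and 7.63% lower with wild type and 9.68% and 10.3% with K80R, and the medians of all genes were 0.02 and 0.01. Among the higher genes were the syntaxin STX1A, at 14.5, 28.2 and 25.1 FPKM, and SIPA1L1, a regulator of Rap GTPases, at 4.59, 7.74 and 7.78. The adaptor GRB2, at 45.6, 27.3 and 26.1 FPKM, and the phosphatase PTPN11, at 56.8, 32.2 and 38.0, were the lower genes with wild type. Of K80R against wild type, none was higher and 2 of 26 were lower, where 1.33% and 3.87% of all genes were. The 2 were the Src-family kinase FYN, at 8.15, 12.4 and 7.93, and the adaptor SHB, at 8.12, 11.1 and 6.91. The next in size were the kinase ABL2, at 10.3, 8.48 and 11.5, and the G-protein regulator RGS3, at 3.74, 4.19 and 3.28, both within 1.5-fold.

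Of 48 effectors, coreceptors and shared ligands of semaphorin signalling, 34 passed the filter. With wild type 5 were higher and 1 lower than with empty vector, with a median of 0.10, and with K80R 3 were higher and 2 lower, with a median of −0.04. Of K80R against wild type, 6 were lower and none higher, with a median of −0.13. Of all genes, 12.0% and 7.63% were higher and lower with wild type, 9.68% and 10.3% with K80R, and 1.33% and 3.87% in K80R against wild type, and the medians were 0.02, 0.01 and −0.03. RRAS, the GTPase that plexins switch off, stood at 39.9, 71.9 and 36.5 FPKM. As deposited, the wild-type library stood highest and apart, and K80R lay near empty vector, at 0.915 times. At a common sum K80R would lie further below empty vector. The growth factor VEGFB, at 22.9, 38.0 and 21.3, was likewise highest with wild type, as was VEGFC, at 24.5, 40.8 and 34.0, while CDK5, a kinase of semaphorin responses, was lowest with K80R, at 7.97, 8.76 and 4.80.

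Of 29 genes of the slit, netrin and related guidance families, 12 passed the filter. Against empty vector 2 were higher and none lower in either library, with medians of 0.15 and 0.20, and between K80R and wild type 1 was higher, with a median of 0.13. Among all genes, 12.0% were higher and 7.63% lower with wild type and 9.68% and 10.3% with K80R. For K80R against wild type the shares were 1.33% and 3.87%, and the 3 medians of all genes were 0.02, 0.01 and −0.03. With 12 genes measured, the counts are too few to tell from these shares. The higher genes were ROBO4, a slit receptor relative of endothelium, at 6.14, 12.6 and 10.6 FPKM, and the netrin receptor NEO1, at 2.40, 4.49 and 5.45. FLRT3, a ligand of UNC5 receptors, stood at 1.15, 0.740 and 1.95 and was the gene that was higher with K80R than with wild type. The others with the largest differences lay within 1.5-fold: NTNG1, a membrane-anchored netrin relative, at 5.08, 7.56 and 7.71, the netrin receptor UNC5B, at 0.92, 1.58 and 1.06, the slit effector SRGAP1, at 2.58, 2.26 and 2.93, and the slit receptor ROBO1, at 4.80, 5.85 and 7.09.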

How the data were processed

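The authors deposited 1 table of FPKM values for 58735 genes, with gene lengths, biotypes and coordinates. Per the submitters' processing notes, CASAVA, featureCounts 1.5.0-p3, DESeq2 1.20.0 and build hg38 were used, with no roles stated; the aligner, annotation and strand setting are not stated in the sources used here. All 53 members had the coordinates of GENCODE 29 (GRCh38), and 19 share exon bases with another gene, 5 of them over 10%. FPKM times gene length was a whole multiple of 1 step per library for 100% of genes above 0 (tolerance 0.05 reads), which gave the reads behind each value.

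Differences were taken as log2(FPKM + 1), with a pseudocount of 1, over protein-coding genes whose mean FPKM was 1 or more. A member high in a single library can pass that filter through it alone. Ratios carry Clopper-Pearson 95% intervals, conditional on the summed reads. No count model was fitted, since each group had 1 library. Read recovery and calls were tested on simulated data. The members, lists and the rule for named genes (every member past the filter, low members with at least 20 reads, and from each list up to 4 genes with the largest difference in wild type against empty vector and in K80R against wild type) were chosen with earlier results of these data known. Outside that rule, some members with fewer reads are also named, with their reads or as promoter matches. The NF-κB motif was added after the data were seen. Python 3.11.15, pandas 2.3.3 and scipy 1.17.1 were used. One gene that the rule names in the semaphorin list is not reported here.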

Additional observations from a re-analysis of the deposited data

How the results depend on the processing

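Of the 3 scalings, that to a common sum of FPKM changed the counts against empty vector most. At a common sum of FPKM, wild-type ZEB1 had 4 members higher and 4 lower (median −0.071) and K80R 3 higher and 6 lower (median 0.056); 4 of the 10 calls (SEMA4B, NRP2, EFNA1, EFNA3) and 4 of the 13 (SEMA6B, SEMA3A, EPHA4, EFNA3) were kept, and none of these 23 calls changed sign. The median ratio kept all of them, as did a common sum without mitochondrially encoded genes except for SEMA7A. The latter gave 9 higher and 0 lower members in wild type against empty vector (9.70% and 9.90% of all genes). In K80R against empty vector it gave 15 higher and 1 lower (12.6% and 8.26%), with PLXNB2 and PLXNA4 among the higher. For K80R against wild type it gave 1 higher and 2 lower members, where 3.62% and 1.85% of all genes were. The median member was then at 0.074, against 0.097 for all genes. With a pseudocount of 0.1, 13 members were higher and 1 lower in wild type than in empty vector (15.7% and 11.1% of all genes). In K80R 16 were higher and 2 lower than in empty vector (13.9% and 13.3%). Of K80R against wild type, 1 was higher and 4 lower (3.47% and 6.01%). With a mean FPKM of at least 5, 3 and 4 of 20 members were higher than empty vector (13.2% and 9.78% of all genes). At that filter 1 was lower in K80R than in wild type (4.31% of all genes). The K80R median against empty vector was then 0.31, as it was with a mean of at least 0.1, against −0.03 and 0.02 for all genes. With a 2-fold limit, 4 of 36 members were higher in wild type than in empty vector (3.50% of all genes), and 0 were higher and 0 lower in K80R (2.30% and 2.23%). At that limit 1 was lower in K80R than in wild type (0.656%). SEMA4B and EFNA1 stayed lower in K80R than in wild type with a pseudocount of 0.1 and under each of the 3 scalings. The looser motif CANNTG was present in 59.6% of member promoters, against 68.7% of all promoters. No paired analysis was possible because each group has 1 library. Depth limited the low members most: with 3 reads in the empty vector library, the wild-type ratio of EFNA3 had an interval of 7.38 to 113.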
